A study of Mus musculus with 6 samples.

Results

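The 7 genes described here encode the enzymes that write and remove 5-methylcytosine in DNA and the factor that guides the maintenance enzyme: Dnmt1, Uhrf1, Dnmt3a, Dnmt3b, Tet1, Tet2 and Tet3. They were taken by gene name from a table of 53465 mouse genes, and all 7 passed the filter on low counts that left 11510 genes for testing. RNA was sequenced from 6 primary liver cancer cell lines of C57BL/6 mice. The 3 Myc_Utx lines (2A, 2B and 2D) came from Kdm6a-deficient tumours, Kdm6a being the mouse gene for the histone H3 lysine 27 demethylase UTX. The 3 Myc_p53 lines (1, 2 and 3) came from p53 knockout tumours and served as the reference. By the study's methods, tumours of both kinds were started in adult female mice by tail vein injection of a MYC transposon together with Cas9 and a guide RNA, so every line carried MYC, and the Myc_p53 lines are a second knockout and not unedited liver. By the series' design text, the 3 lines of a genotype came from tumours of different mice. The paragraph on RNA sequencing in the study's methods names lines targeted at Mll3, not Kdm6a, beside the p53 lines, whereas its results and the labels name Kdm6a; the labels were followed.

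DNA methylation in mammals sits mainly on cytosines of CG dinucleotides. DNMT1 copies it onto the new strand after replication, with UHRF1 recognising hemimethylated sites and bringing DNMT1 to them, whereas DNMT3A and DNMT3B methylate sites anew. TET1, TET2 and TET3 oxidise 5-methylcytosine in a reaction that consumes 2-oxoglutarate and needs iron, which opens a route to unmethylated cytosine through base excision repair or dilution at replication. DNMT1 and UHRF1 are known as genes of dividing cells, and in liver the maintenance pair is low in resting hepatocytes. Only mRNA was measured in these lines; neither the proteins nor methylation itself was.

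Promoter sequence is shown for the maintenance pair and the Tet genes, the former being known as genes of dividing cells and the latter being the genes whose mRNA groups did not overlap. RefSeq promoter windows (GRCm38.p6) of 300 bases, from 250 before to 50 after an annotated start, were found for all 7 genes, 12 windows in all. The runs have 280 bases, 5′ to 3′ on the strand of the gene. Capitals mark a match, on either strand, to the E2F site forms TTTCCCGC, TTTCGCGC, TTTGGCGC or TTTGCCGC, which were found in 2.26% of 32851 windows.
Dnmt1 (chr9:20952594-20952873, minus strand): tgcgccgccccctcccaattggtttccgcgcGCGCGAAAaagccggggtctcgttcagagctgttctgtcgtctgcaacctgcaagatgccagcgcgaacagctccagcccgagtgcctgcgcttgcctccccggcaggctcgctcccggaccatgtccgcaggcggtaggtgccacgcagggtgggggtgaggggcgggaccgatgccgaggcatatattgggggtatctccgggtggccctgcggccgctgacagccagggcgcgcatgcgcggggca
Uhrf1 (chr17:56304063-56304342, plus strand): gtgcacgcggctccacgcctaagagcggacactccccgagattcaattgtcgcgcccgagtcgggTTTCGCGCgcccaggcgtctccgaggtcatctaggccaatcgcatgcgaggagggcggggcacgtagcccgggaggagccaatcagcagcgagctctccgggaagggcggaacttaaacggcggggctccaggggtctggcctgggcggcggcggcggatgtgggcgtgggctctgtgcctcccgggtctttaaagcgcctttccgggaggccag
Tet3 (chr6:83441649-83441928, minus strand): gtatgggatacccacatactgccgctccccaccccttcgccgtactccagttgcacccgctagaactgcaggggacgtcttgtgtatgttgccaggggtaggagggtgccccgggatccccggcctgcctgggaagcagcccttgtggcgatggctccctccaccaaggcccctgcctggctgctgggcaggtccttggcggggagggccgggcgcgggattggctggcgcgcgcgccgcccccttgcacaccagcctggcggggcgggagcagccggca
Tet2 (chr3:133544361-133544640, minus strand): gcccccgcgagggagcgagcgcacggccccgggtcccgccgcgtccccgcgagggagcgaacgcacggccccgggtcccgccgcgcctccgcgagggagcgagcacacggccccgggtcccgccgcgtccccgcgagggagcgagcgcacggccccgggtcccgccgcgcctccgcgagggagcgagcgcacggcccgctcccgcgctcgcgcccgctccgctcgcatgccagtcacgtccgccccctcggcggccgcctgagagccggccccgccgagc
Tet1 (chr10:62887295-62887574, minus strand): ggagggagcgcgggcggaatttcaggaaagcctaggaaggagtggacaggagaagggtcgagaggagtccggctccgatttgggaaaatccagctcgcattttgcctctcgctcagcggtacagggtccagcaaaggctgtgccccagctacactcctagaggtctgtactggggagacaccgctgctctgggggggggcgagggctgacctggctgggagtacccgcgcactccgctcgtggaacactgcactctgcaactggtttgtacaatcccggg
One of the 3 Dnmt1 windows held 2 matches, of which the second lies past the end of the printed run, and 1 of the 2 Uhrf1 windows held 1 match. These 4 forms had no match in the windows of Dnmt3a, Dnmt3b, Tet1, Tet2 and Tet3. The Tet2 window held 57 CG dinucleotides, the Tet3 window 22 and the Tet1 window 17, against a median of 7 and a 90th percentile of 31 over all windows. The Dnmt1 and Uhrf1 windows shown, which are those with a match, held 33 each. The other Dnmt1 windows held 2 and 12 and the other Uhrf1 window 12. Each of the 4 forms contains CG, so their share over all windows is not matched to windows rich in CG. A match describes the letters and no binding was measured, nor do the counts tell which start a line used.

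Total counts per line ranged from 4656103 to 6937497. Across all genes tested, edgeR's quasi-likelihood test at a Benjamini-Hochberg adjusted p under 0.05 called 885 lower in Myc_Utx (7.69%) and 805 higher (6.99%). Scaling by total counts alone turned this split into 1009 lower and 601 higher, while the median log2 fold change moved from -0.01 to -0.08. Kdm6a mRNA, at 39.7, 45.7 and 49.0 CPM (counts of a gene per 1000000 counts of the library, TMM-normalised) in Myc_Utx and 69.5, 64.5 and 42.5 CPM in Myc_p53, overlapped between the groups and was not called (log2 fold change -0.39, edgeR adjusted p = 0.243). Guide-directed cutting need not lower the mRNA, so this value does not check the labels. The defining hepatocyte marker albumin (Alb) had 4 to 26 counts per line. The keratins Krt8 and Krt18, also on the list of 10 hepatocyte and liver tumour markers, had 4537 and 2984 counts in Myc_p53 1 and 0 each in Myc_Utx 2D. The sum of that list was 26.7, 94.6 and 2.89 CPM in Myc_Utx and 1222, 52.8 and 829 CPM in Myc_p53. Of the endothelial markers, 4 of 7 had at most 3 counts in every line. The summed levels of the hepatocyte, biliary, fibroblast and endothelial lists overlapped between the groups. The fibroblast and stellate sum ran from 1953 to 2693 CPM in Myc_Utx and was 41.4, 3170 and 720.0 CPM in Myc_p53 lines 1, 2 and 3, so the controls themselves were not alike.

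The DNA methyltransferase mRNAs did not differ detectably between the genotypes, whereas the 3 Tet mRNAs were all lower in every Myc_Utx line than in every Myc_p53 line. Of the 7 genes, edgeR called 1 lower, Tet3, and 0 higher, beside 7.69% lower and 6.99% higher over all genes. At an unadjusted p under 0.05 there were 3 lower and 0 higher, and DESeq2 also called only Tet3 lower, against 13.2% of the genes for which it gave an adjusted p. Non-overlapping groups with Myc_Utx lower were found for 3 of the 7 and for 20.9% of all genes. The 3 were Tet1, Tet2 and Tet3, of which Tet1 passed the filter on low counts only through the Myc_p53 lines. All 3 have exons of more than 15000 bases, and of the tested genes at least that long 77.5% lay below 0. With offsets for gene length, described below, edgeR called 0 of the 7.

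**Figure D1:**
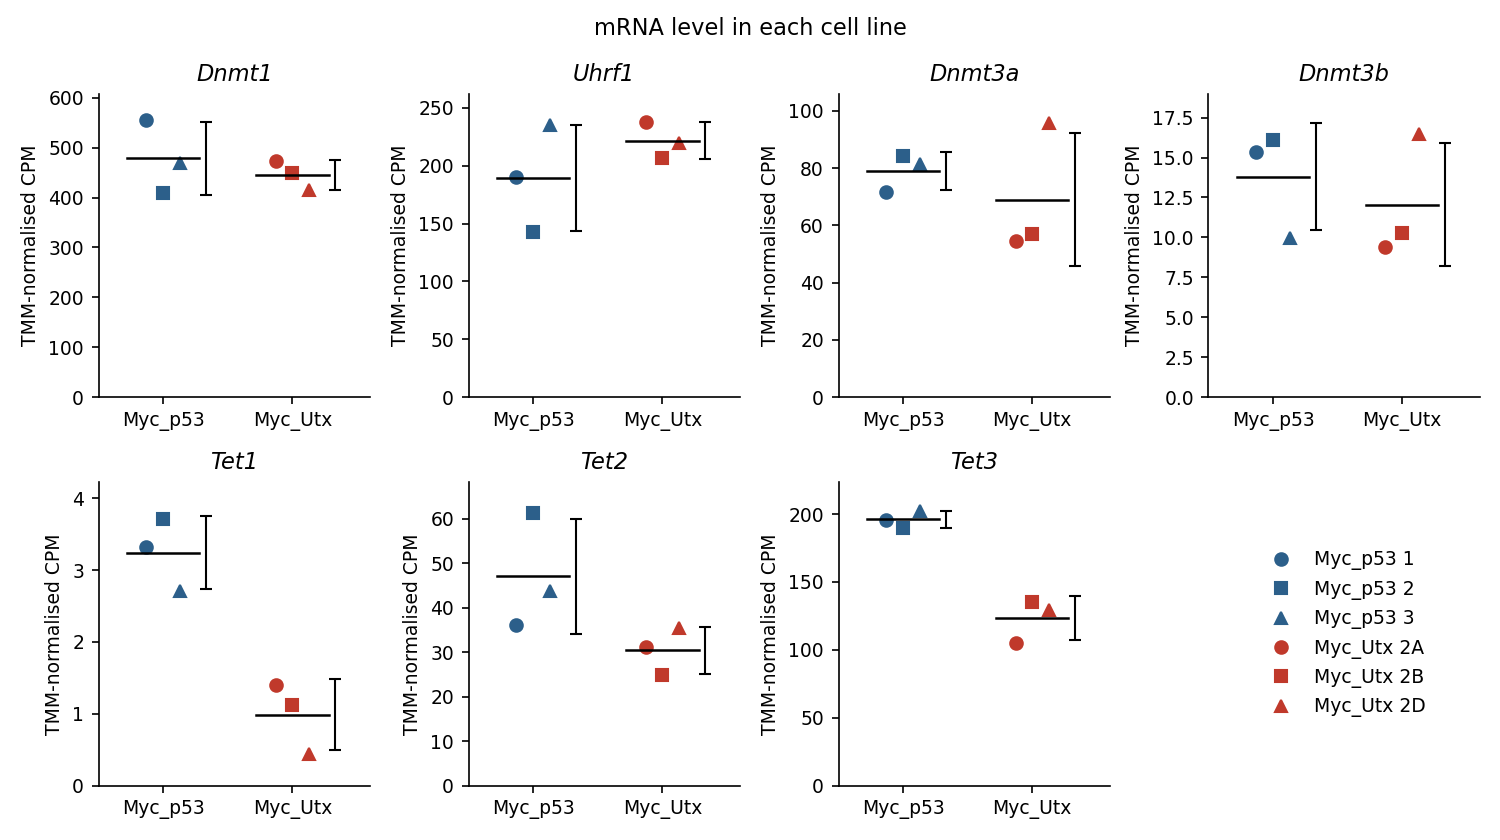
TMM-normalised CPM (vertical axes, from 0) of the 7 genes in each cell line, with symbols for the lines, a horizontal line for the group mean and a bar for the SD (n = 3 per group). The Tet1, Tet2 and Tet3 points of the 2 genotypes do not overlap, while those of Dnmt1, Uhrf1, Dnmt3a and Dnmt3b do.

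Dnmt1, the maintenance methyltransferase, was the most abundant of the 7. Its level was 474, 448 and 414 CPM in Myc_Utx 2A, 2B and 2D and 556, 409 and 470 CPM in Myc_p53 1, 2 and 3. The ranges overlapped, with the highest and the lowest value both in control lines. The log2 fold change of Myc_Utx over Myc_p53 was -0.10 with SE 0.14 (95% interval -0.44 to 0.23, edgeR adjusted p = 0.632).

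Uhrf1, whose protein reads hemimethylated CG sites, stood at 238, 207 and 220 CPM in Myc_Utx and 190, 143 and 235 CPM in Myc_p53. Control line 3 lay among the Myc_Utx lines and control line 2 below all others. The log2 fold change was 0.22 (SE 0.19, 95% interval -0.23 to 0.68, edgeR adjusted p = 0.435). Uhrf1 was the only one of the 7 with a fold change above 0. Per kilobase of exon, the ratio of Uhrf1 to Dnmt1 was 0.872, 0.798 and 0.919 in Myc_Utx and 0.593, 0.606 and 0.867 in Myc_p53. These ratios overlapped (two-sided exact permutation p = 0.2, where 0.1 is the smallest p that 3 against 3 allows).

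The de novo enzymes were less abundant and more scattered. Dnmt3a stood at 54.4, 56.9 and 95.8 CPM in Myc_Utx and 71.6, 84.2 and 81.4 CPM in Myc_p53. Myc_Utx 2D was the highest of the 6 lines and the other 2 Myc_Utx lines the lowest, so the spread within Myc_Utx (SD 23.2) exceeded the difference of the means. Its log2 fold change was -0.20 (SE 0.24, 95% interval -0.77 to 0.38, edgeR adjusted p = 0.595). Dnmt3b had 47 to 97 counts per line, or 9.37, 10.3 and 16.5 CPM in Myc_Utx and 15.3, 16.1 and 9.98 CPM in Myc_p53. Line 2D was again the highest, control line 3 was among the low ones, and the log2 fold change was -0.20 (SE 0.32, 95% interval -0.97 to 0.58, edgeR adjusted p = 0.693). The Myc_Utx lines were spread, with an SD of 3.86 CPM on a mean of 12.1 CPM, and a change in Dnmt3b anywhere within that interval remained possible.

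Tet3 was the most abundant Tet gene and the only one of the 7 past the threshold. Its level was 105, 135 and 130 CPM in Myc_Utx and 196, 190 and 202 CPM in Myc_p53. The groups were well apart, the highest Myc_Utx line lying below the lowest control, and the controls were tight. The means were 123 ± 16.2 and 196 ± 6.10 CPM (SD, n = 3 each), 1.59-fold higher in Myc_p53. The log2 fold change was -0.67 (SE 0.13, 95% interval -0.97 to -0.36, edgeR adjusted p = 0.0257). DESeq2 gave -0.69 with an adjusted p of 6.00e-05. Leaving out any Myc_Utx line, or Myc_p53 3, ended the call: the edgeR adjusted p rose to 0.0752 without Myc_Utx 2A, 0.0712 without 2B, 0.0896 without 2D and 0.0735 without Myc_p53 3, while the log2 fold change stayed between -0.73 and -0.55. Over all genes those fits called only 1, 38, 28 and 57 lower, in the same order, against 885 with every line, so the loss was not particular to Tet3.

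Tet2 had a fold change of similar size with more scatter. It stood at 31.1, 24.9 and 35.4 CPM in Myc_Utx and 36.0, 61.4 and 43.6 CPM in Myc_p53. The groups just failed to overlap, Myc_Utx 2D lying next to Myc_p53 1. The log2 fold change was -0.62 (SE 0.25, 95% interval -1.22 to -0.03), which did not pass the threshold (edgeR adjusted p = 0.129). Tet1 was scarce, with 7, 6 and 2 counts in Myc_Utx and 21, 20 and 19 counts in Myc_p53. That was 1.40, 1.12 and 0.445 CPM against 3.32, 3.71 and 2.71 CPM, with the largest fold of the 7 and the fewest reads behind it. The log2 fold change was -1.68 (SE 0.46, 95% interval -2.77 to -0.58) and missed the threshold (edgeR adjusted p = 0.0554). The adjusted p was 0.0885 by DESeq2 and 0.132 by edgeR without a filter on low counts. Tet1 passed that filter only through the Myc_p53 lines, where it was higher.

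**Figure D2:**
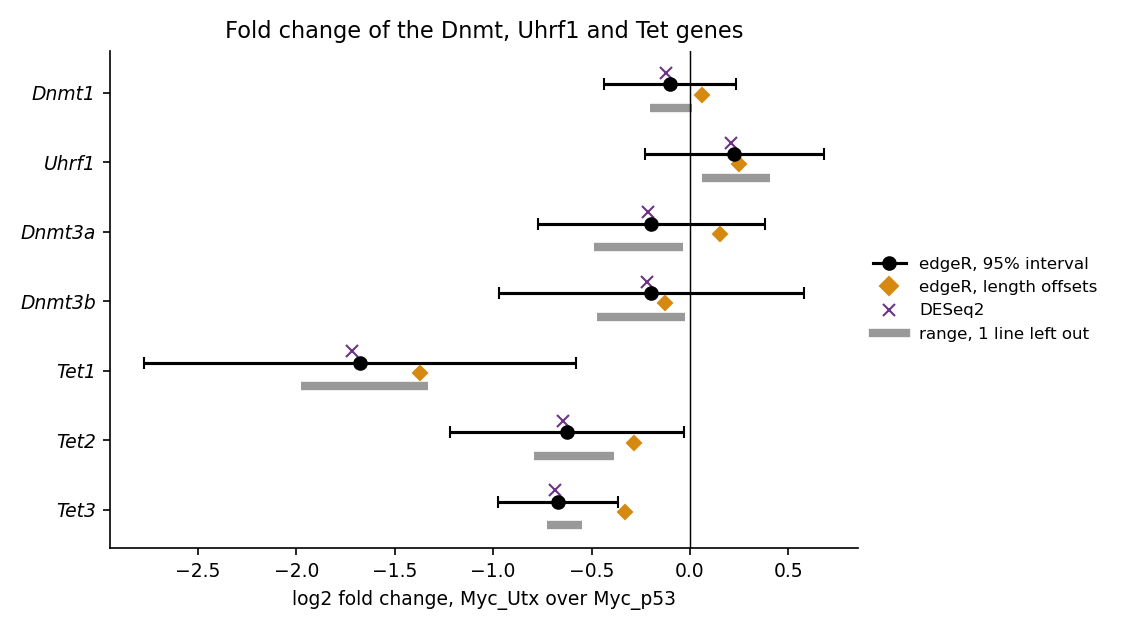
Log2 fold change of Myc_Utx over Myc_p53 (horizontal axis) for the 7 genes, by edgeR with its 95% interval (black), by edgeR with length offsets (orange), by DESeq2 (purple) and as the range when 1 line is left out (grey). The edgeR intervals of Tet1, Tet2 and Tet3 lie below 0, and length offsets bring Tet3 from -0.67 to -0.33.

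Gene length moved with the fold change over the whole table, and the Tet genes are long. The exons of Tet1, Tet2, Tet3 and Dnmt3a cover 15457, 16870, 16695 and 16642 bases, against 7377 for Dnmt1, 5106 for Dnmt3b and 4259 for Uhrf1. Among the 315 tested genes of 15000 bases or more, the median log2 fold change was -0.38, 77.5% lay below 0 and 21.3% were called lower. Among the 353 genes under 1000 bases the median was 0.39 and 1.42% were called lower. Dnmt3a, as long as Tet3, had a log2 fold change of -0.20, above the median of its length class, while the 3 Tet genes lay below it.

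With offsets that removed the length trend line by line, edgeR called 5.13% of all genes lower and 6% higher, and 0 of the 7 in either direction. At an unadjusted p under 0.05 there were then 2 lower and 0 higher. The log2 fold change of Tet3 became -0.33 (edgeR adjusted p = 0.153), that of Tet2 -0.29 (adjusted p = 0.487) and that of Tet1 -1.37 (adjusted p = 0.0933). All 3 stayed below 0, but the Tet3 call was lost. Dnmt1 and Dnmt3a moved to 0.06 and 0.15. The offsets were fitted to these same 6 lines, and a length effect and a genotype effect on long genes cannot be told apart.

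**Figure D3:**
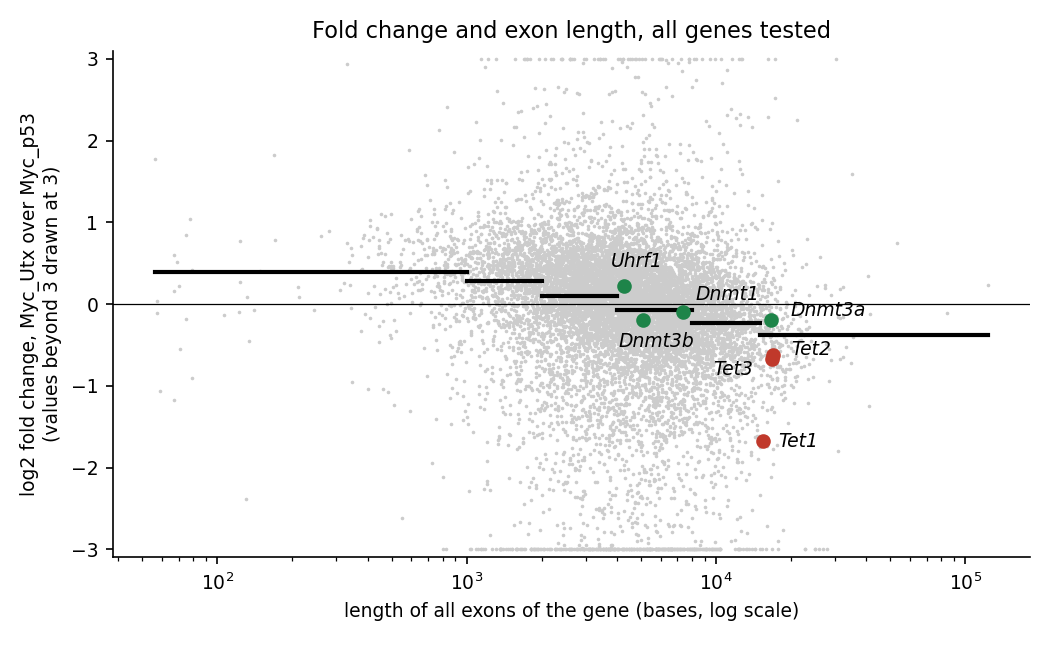
Log2 fold change (vertical axis) against exon length in bases (log axis) for all 11510 tested genes (grey), with the median of each length class as a black bar, the Tet genes in red and the other 4 genes in green. The class medians fall from 0.39 to -0.38, and the 3 Tet genes lie below the median of the longest class.

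Levels can be added between genes only per length. Per kilobase of exon, the mean over the 6 lines was 62.6 CPM for Dnmt1, 48.3 for Uhrf1, 9.56 for Tet3, 4.45 for Dnmt3a, 2.53 for Dnmt3b, 2.30 for Tet2 and 0.137 for Tet1. Neighbours in that order whose ranges over the lines overlapped were Dnmt1 and Uhrf1 (55.4 to 75.3 and 33.6 to 56.0) and Dnmt3b and Tet2 (1.84 to 3.23 and 1.48 to 3.64). Dnmt3a, at 3.27 to 5.75, also touched the highest Tet2 line but lay above every Dnmt3b value, and Tet3, at 6.28 to 12.1, lay clear of it. The lengths count every annotated exon, so genes with many transcripts, such as Dnmt3a with 18, are understated.

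The summed Tet level was 8.22, 9.66 and 9.89 CPM per kilobase in Myc_Utx and 14.1, 15.3 and 14.9 in Myc_p53. The groups did not overlap, with means of 9.26 ± 0.906 and 14.7 ± 0.596 (SD, n = 3 each), a ratio of 0.628 (two-sided exact permutation p = 0.1, the smallest possible). The summed Dnmt level was 69.3, 66.2 and 65.1 in Myc_Utx and 82.6, 63.6 and 70.6 in Myc_p53, which overlapped (exact permutation p = 0.6). The ratio of the Tet to the Dnmt sum was 0.119, 0.146 and 0.152 in Myc_Utx and 0.170, 0.240 and 0.211 in Myc_p53. It was lower in all 3 Myc_Utx lines, by the smallest margin against Myc_p53 1, where Dnmt1 was highest (exact permutation p = 0.1). Division by length does not remove the trend of fold change with length. The Tet genes are longer than Dnmt1, so that trend enters the Tet sum and this ratio, and no length offsets were applied to them. Ratios to Dnmt3a, nearly as long as Tet3, are given under other observations.

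The make-up of each sum overlapped between the genotypes but for Tet1. Tet3 gave 76.5%, 84.0% and 78.5% of the Tet sum in Myc_Utx and 83.3%, 74.6% and 81.4% in Myc_p53, and Dnmt1 gave 86.2% to 92.6% of the Dnmt sum in every line. The share of Tet1 was 1.10%, 0.753% and 0.291% in Myc_Utx and 1.52%, 1.57% and 1.18% in Myc_p53. This share alone did not overlap (exact permutation p = 0.1), and it rests on at most 7 Tet1 counts in a Myc_Utx line.

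**Figure D4:**
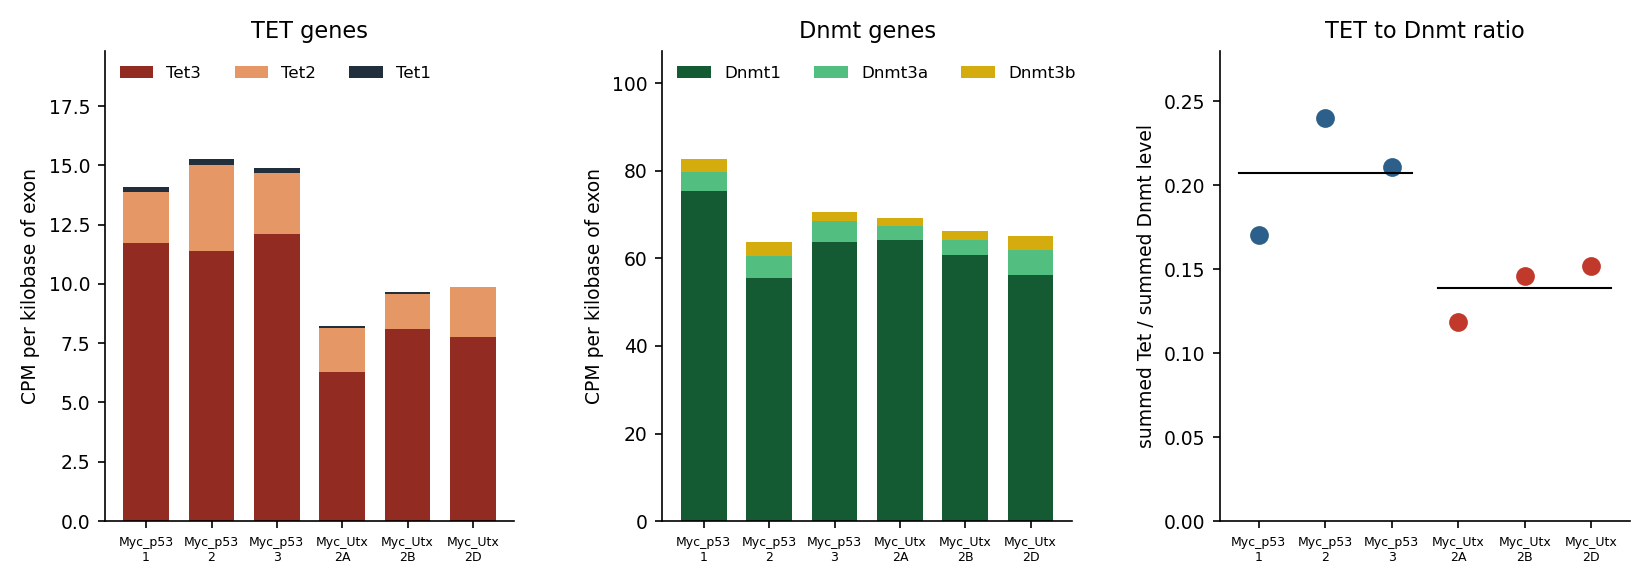
Levels per line in CPM per kilobase of exon, stacked by gene, for the Tet genes (left) and the Dnmt genes (middle), and the ratio of the 2 sums with group means as lines (right). The Tet sum and the ratio are lower in each Myc_Utx line (8.22 to 9.89 and 0.119 to 0.152) than in each Myc_p53 line, and the Dnmt sums overlap. The trend of fold change with length was not removed from these levels.

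Among markers of other cells, the macrophage and blood list separated the genotypes. The summed level of 12 macrophage and blood markers was 2.79, 6.74 and 5.57 CPM in Myc_Utx and 101, 41.0 and 111 CPM in Myc_p53. Of these, 6 were testable and 5 called lower, beside 7.69% of all genes. Among them was Csf1r, the receptor of a macrophage growth factor, at 0, 1 and 0 counts against 259, 39 and 243. The 5 called had at most 5 counts in any Myc_Utx line. They passed the filter only through the Myc_p53 lines, which fixed their direction. The testable marker not called, Cd68, had 14, 21 and 24 counts in Myc_Utx and 65, 18 and 48 in Myc_p53 (edgeR adjusted p = 0.300). The pan-leukocyte gene Ptprc had only 1 to 3 counts in the controls and 0 in Myc_Utx, and Cd3e was at 0 in every line. Control line 2, with the lowest of the 3 control sums, also had the lowest control level of Tet3 (190 CPM against 196 and 202 CPM) but the highest Tet2 level. By the study's methods, the tumour cells were passaged until no contaminating cells could be seen. The part of macrophage RNA in the Tet values was not tested, and fewer cells of a type cannot be told apart from less RNA per cell.

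Genes of S phase, when the maintenance pair acts, were counted as well. Of 26 listed, 5 were called higher (Mcm5, Mcm6, Rrm1, Rrm2 and Ccne1) and 0 lower by edgeR, beside 6.99% higher and 7.69% lower over all genes, and 24 had a fold change above 0. The list's median log2 fold change was 0.38, and 0.36 with length offsets. With 1 line left out, 0 to 6 were called higher, and 0 without Myc_Utx 2A. The helicase subunits Mcm5 and Mcm6 had log2 fold changes of 0.62 and 0.55, the ribonucleotide reductase subunits Rrm1 and Rrm2 0.70 and 1.19, and cyclin E1 (Ccne1) 1.65. The summed level of all 26 genes was 5367, 4941 and 5601 CPM in Myc_Utx and 4076, 3977 and 4170 CPM in Myc_p53, without overlap. Dnmt1 and Uhrf1, which dividing cells use, had overlapping levels in the same lines.

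Beyond the 7 genes, 64 genes that act with them were examined in 6 lists, 57 of which were testable. Of these 57, 7 were called higher and 5 lower by edgeR, beside 6.99% higher and 7.69% lower over all genes, with a median log2 fold change of 0.11 against -0.01 over all genes. The same shares over all genes stand beside the counts of each list below. The genes named from the lists are single calls and say nothing about the lists as groups. Length offsets left 5 higher and 2 lower, with a median of 0.16 against 0.03 over all genes. Without Myc_Utx 2A, 2B or 2D or Myc_p53 3, edgeR called 0 of them (15 to 20 at an unadjusted p under 0.05), and each gene named from these lists was called in 0 to 2 of the 6 fits with 1 line left out.

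The 7 partners of maintenance had 1 gene higher and 0 lower, with a median of 0.02 (0.16 with length offsets). This was Lig1, the ligase of the lagging strand, at 192, 158 and 167 CPM in Myc_Utx against 125, 114 and 109 CPM (log2 fold change 0.57, SE 0.12, edgeR adjusted p = 0.0319). Lig1 shares an end with Zswim9 on the other strand, and whether strand was used in counting is not given in the sources used here. Of 6 testable partners of de novo methylation out of 9, 1 rose and 1 fell, with a median of -0.16 (-0.04 with length offsets). Trim28, a scaffold for silencing complexes, rose by a log2 fold change of 0.49 (SE 0.09, edgeR adjusted p = 0.0256). Nsd1, which makes the histone H3 lysine 36 dimethyl mark that DNMT3A reads, stood at 203, 155 and 206 CPM against 378, 299 and 268 CPM (log2 fold change -0.75, adjusted p = 0.0414). Nsd1 is 17483 bases long, and with length offsets its adjusted p was 0.211.

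Among 10 readers of methylated CG, 1 rose and 2 fell, with a median of -0.19 (0.03 with length offsets). Zbtb4, a zinc finger protein that binds methylated CG, stood at 3.19, 3.18 and 2.23 CPM in Myc_Utx and 9.48, 17.4 and 16.3 CPM in Myc_p53. It was 5.02-fold higher in the controls (log2 fold change -2.31, SE 0.35, edgeR adjusted p = 0.0177), and length offsets left it called at -2.13 (adjusted p = 0.0217). Mbd1 was lower by -0.65 on the log2 scale (adjusted p = 0.0433) and Mbd3, a subunit of the NuRD complex that itself binds methylated DNA poorly, higher by 0.77 (adjusted p = 0.0272). With length offsets neither passed, at adjusted p = 0.0799 for Mbd1 and 0.0525 for Mbd3.

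The genes around TET activity moved in both directions. Of 15 TET partners and suppliers of its cofactors, 3 rose and 1 fell, beside 6.99% higher and 7.69% lower over all genes. Their median was 0.32, and 0.19 with length offsets. Cxxc4, whose protein binds unmethylated CG and is known to lower TET2 protein, stood at 28.5, 35.0 and 34.5 CPM in Myc_Utx and 9.64, 3.15 and 7.13 CPM in Myc_p53. Every Myc_Utx line was far above every control, 4.92-fold by the means (log2 fold change 2.29, SE 0.40, edgeR adjusted p = 0.0211; 2.59 with length offsets, adjusted p = 0.0217). Cxxc4 overlaps a non-coding gene and a miRNA on the other strand. Ogt, the O-GlcNAc transferase that binds TET2 and TET3, stood at 184, 192 and 171 CPM against 299, 225 and 284 CPM (log2 fold change -0.56, SE 0.14, adjusted p = 0.0431). Length offsets took Ogt out of the calls (adjusted p = 0.108).

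Idh3a, a subunit of the mitochondrial enzyme that makes 2-oxoglutarate, rose by 0.80 on the log2 scale (SE 0.19, edgeR adjusted p = 0.0397). Fh1, which removes fumarate, an inhibitor of 2-oxoglutarate dependent enzymes, rose by 0.81 (SE 0.14, adjusted p = 0.0206). Both remained called with length offsets, at adjusted p = 0.0410 and 0.0270. Of 8 testable genes of the methyl donor cycle out of 11, 1 rose and 0 fell, with a median of -0.20 (-0.04 with length offsets). Ahcy, which clears the S-adenosylhomocysteine that methyltransferases release, rose by 0.81 on the log2 scale (adjusted p = 0.0410), and by 0.72 with length offsets, where it missed the threshold (adjusted p = 0.0568).

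Of 11 testable genes of base excision demethylation out of 12, 0 rose and 1 fell, with a median of 0.17 (0.21 with length offsets). The exception was Neil2, a glycosylase for oxidised bases. It had 0 counts in all 3 Myc_Utx lines and 26, 23 and 25 counts in Myc_p53, so it was at least 6.53-fold lower by a floor of 3 counts per library (edgeR adjusted p = 0.0164). Neil2 passed the filter on low counts only through the Myc_p53 lines, so it could only be called lower. Tdg, the glycosylase that removes the products of TET oxidation, was looked at after its value was seen and was not called (log2 fold change 0.14, adjusted p = 0.542).

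**Figure D5:**
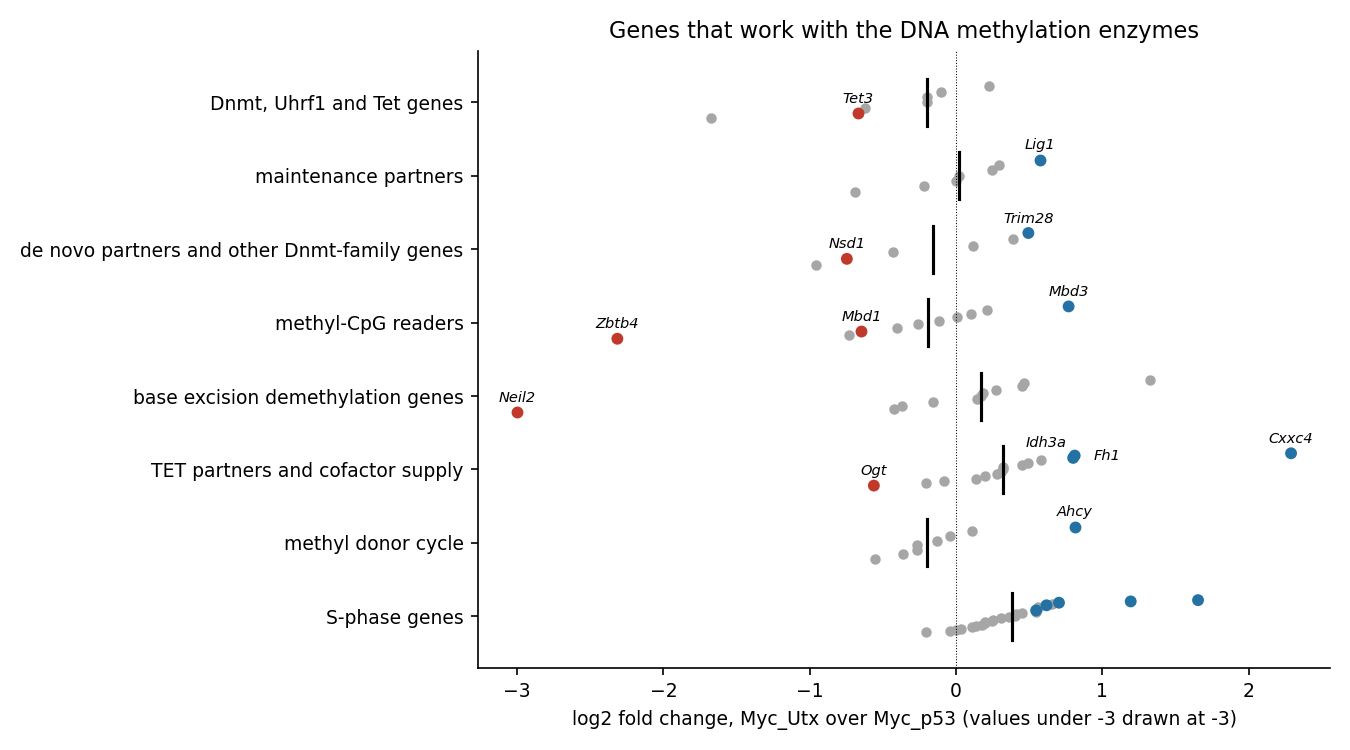
Log2 fold change (horizontal axis) of the 7 genes and of the tested genes of each list, with genes at an edgeR adjusted p under 0.05 in red (lower) or blue (higher), the others in grey, and a black bar at the median. Tet3 is the 1 called among the 7, Cxxc4 and Zbtb4 stand far out on opposite sides, and the S-phase genes lie mostly above 0.

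Germline genes that DNA methylation keeps silent in body cells had few or no counts in either genotype. Of 20 such genes, 17 had at most 3 counts in every line, 13 of them 0 throughout, and 0 were abundant enough to test. The other 3 were Ddx4, Rhox5 and Tex19.1. Ddx4, a germ cell helicase, had 0, 1 and 0 counts in Myc_Utx and 17, 0 and 6 in Myc_p53. Rhox5, a homeobox gene, had 6, 8 and 2 counts in Myc_Utx and 0, 0 and 1 in Myc_p53. Such counts are too few for a comparison at this depth.

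The genes whose levels ran most like each of the 7 over the 6 lines were picked by Pearson's r of log2 CPM among 9484 other genes. For Tet3 they were Igfbp7 (r = 0.996) and Dennd4a (r = 0.993), for Tet2 Ksr1 (0.987) and Arfip1 (0.985), and for Tet1 Ints1 (0.998, among 9485) and Ptprf (0.994). For Dnmt1 they were Ift122 (0.985) and Itpr3 (0.981), for Uhrf1 Mvb12b (0.999) and Zfp37 (0.991), for Dnmt3a Arfrp1 (0.978) and Gadd45b (0.968), and for Dnmt3b Efhd2 (0.982) and Clk2 (0.972). An r over 0.95 was shared with 148 genes for Tet3, 104 for Tet1 and 51 for Tet2, but with 6 to 15 for the other 4. None of the 7 was among another's nearest pair. Each genotype gives 3 of the 6 points, so a gene that differs between the genotypes resembles many others that do, and these values are a description only.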

How the data were processed

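Un-normalised counts for each Ensembl gene were deposited by the authors for the 6 lines, with a length per gene. The submitters' processing notes name Trimmomatic 0.36, STAR 2.5.3a, featureCounts 1.6.3, DESeq2 1.20.0 and GRCm38, without their roles. The study's methods name HTSeq and a human build instead, whereas the table holds mouse genes. The lengths equal the union of all exons in GENCODE M21 for 95.6% of genes.

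Groups came from the labels. Genes were filtered with filterByExpr, normalised with TMM and compared with the quasi-likelihood F test of edgeR 4.0.16 in R 4.3.3, with Benjamini-Hochberg adjustment over all 11510 genes tested. SE was computed as the absolute log2 fold change over the root of F. Sums of CPM per kilobase were compared with exact permutation tests, two-sided. Alternatives were DESeq2 1.42.0, 2 other scalings, 2 other filters, offsets from a spline of each line's deviation on log2 length, and leaving out each line. The fit was tested on simulated data.

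All 7 genes were named. From each list the genes called were named, at most 6 per direction, or the 2 most abundant where none was called, besides the 2 nearest genes. The genes and lists were chosen with earlier results of these data known. The mRNA of the gene targeted in the Myc_p53 lines is not reported here.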

Additional observations from a re-analysis of the deposited data

How the results depend on the processing

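Over 12 alternative analyses, 6 of them leaving out 1 line (11 for Tet1, which the stricter filter removed), Tet1, Tet2, Tet3 and Dnmt3b stayed below 0 and Uhrf1 above 0. Dnmt1 turned to 0.0623 and Dnmt3a to 0.15 with length offsets, and Dnmt1 ran from -0.20 to 0.0126 over the lines left out. The number of the 7 genes called lower was 0 with length offsets and 0 to 1 with a line left out, where edgeR gave 2 to 4 at an unadjusted p under 0.05. Of the 57 partner genes, those called lower numbered 3 without a filter, 8 with DESeq2, 2 with length offsets and 0 to 3 with a line left out, and those called higher 0 to 5 with a line left out (15 to 23 in all at an unadjusted p under 0.05). Over all genes the calls numbered 1514 lower and 1268 higher with DESeq2 and, with a line left out, 1 to 1118 lower and 3 to 836 higher. No paired analysis was possible because the groups share no replicate numbers. Total counts of 4656103 to 6937497 limit what can be said of Tet1 and Dnmt3b, as does the spread between lines for Dnmt3b. Intervals for levels cover the spread between lines only.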

Other observations

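Tet3 and Dnmt3a have nearly the same exon length, which allows their levels to be set against each other within a line. This measure and the ratio of the Tet sum to Dnmt3a were chosen after the values were seen, so their p-values are descriptive only. The ratio of Tet3 to Dnmt3a per kilobase was 1.92, 2.37 and 1.35 in Myc_Utx and 2.73, 2.25 and 2.48 in Myc_p53, which overlapped (two-sided exact permutation p = 0.2). The ratio of the Tet sum to Dnmt3a was 2.51, 2.82 and 1.72 in Myc_Utx and 3.28, 3.02 and 3.04 in Myc_p53, which did not overlap (exact permutation p = 0.1, the smallest possible with 3 against 3). Tet3 makes up most of that sum, and the lowest value, in Myc_Utx 2D, came with the highest Dnmt3a level of all lines.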
